A study of Mus musculus with 12 samples.

Results

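The 78 genes described here are named Mrpl or Mrps, for the large and the small subunit of the mitochondrial ribosome, in mouse embryonic stem cells. Membership was set by name: every symbol made of Mrpl or Mrps, a number and at most 1 letter, without pseudogenes, that stood in both count tables of the series. The group itself was chosen with earlier results of these data known. There were 22034 symbols in all for footprints and 49997 for RNA. Of the 78 genes, 51 encode proteins of the large subunit and 26 proteins of the small one. Mrps36 carries the name but is known as a subunit of the oxoglutarate dehydrogenase complex. Mrps18a and Mrps30 are named for the small subunit, but their proteins sit in the large one and were counted there.

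Mitochondria translate the few mRNAs of their own genome on ribosomes that descend from bacterial ones. The ribosomal RNAs of these ribosomes are made in the organelle, whereas all of their proteins are encoded in the nucleus, translated by cytosolic ribosomes and imported. Some of the proteins have bacterial relatives and others were added in the evolution of mitochondria. Among the members, 30 large-subunit and 16 small-subunit proteins were of the bacterial type, and 21 large-subunit and 10 small-subunit proteins were mitochondria-specific. Mammalian mitochondria use release factors of their own, so the mRNAs of the members, and not the ribosomes they build, depend on the cytosolic release factor eRF1 that the study targeted.

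The cells were of the line ES-E14TG2a, grown on gelatin with serum, LIF and inhibitors of GSK3 and MEK, and eRF1 carried a dTAG degron in all of them. Ribosome footprints, the mRNA fragments that ribosomes shield from RNase, were counted in Gcn2 knockout cells given 500 nM dTAG-13 for 1 h, in untreated Gcn2 knockout cells, in wild-type cells given the same dose for the same time, and in untreated wild-type cells. dTAG-13 leads tagged proteins to degradation, and Gcn2 is the kinase that phosphorylates eIF2 when ribosomes stall or amino acids run short. Every one of the 4 groups had 2 libraries, labelled as biological replicates A and B. Poly(A) RNA came from treated and untreated wild-type cells, also in duplicate, which makes 12 libraries. The labels name neither a vehicle control nor treated cells without the tag, so the effects of the compound and of eRF1 loss cannot be told apart. They do not say whether a line is 1 clone, nor whether replicates were separate cultures, so a p-value measures the spread between these samples.

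The knockout libraries carried few footprints of Eif2ak4, the gene of Gcn2: 3.10 and 5.36 CPM in treated knockout cells, 2.46 and 2.33 CPM in untreated knockout cells, 34.0 and 33.2 CPM in treated wild-type cells and 27.7 and 29.4 CPM in untreated wild-type cells. CPM are counts scaled to a common library total, with library sizes set by TMM (trimmed mean of M values). Footprint libraries held 7874804 to 19691716 counts and RNA libraries 17462458 to 24256097. The smallest was treated wild-type replicate A. All 8 naive stem cell markers were detected, with a summed level of 5565 to 6143 CPM in the footprint libraries, while the 7 feeder fibroblast markers summed to 4.36 to 9.29 CPM, with Postn at 0 throughout, and the 6 primitive endoderm markers to 3.01 to 5.71 CPM. One of these, Gata4, a transcription factor of the endoderm, was called lower in knockout cells, with 1.12 and 1.65 CPM in treated knockout cells, against 3.58 and 2.74 CPM in untreated knockout cells (log2 change -1.17, SE 0.335, adjusted p = 0.0472 in edgeR's quasi-likelihood test). This call was lost when any 1 of the 4 knockout libraries was left out, and in wild-type cells Gata4 had 2.65 and 2.50 CPM with treatment, against 2.45 and 3.79 CPM without. Its part in the results on the members was not tested. The 13 mitochondrially encoded mRNAs were at 0 in all 8 footprint libraries, so translation inside mitochondria was not measured.

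All 78 genes had footprints in these cells. They passed the filter on low footprint counts without exception, and the lowest count of any member in any footprint library was 91. In untreated wild-type cells, the mean footprint level ranged from 14.7 to 214 CPM with a median of 73.9 CPM. These levels are not per length, so they do not rank the genes. The members together took 0.547% to 0.684% of all footprint counts and 0.430% to 0.455% of RNA counts. The footprint share was 0.609% and 0.604% in treated knockout cells, against 0.645% and 0.684% in untreated knockout cells. In wild-type cells it was 0.595% and 0.547% with treatment, against 0.672% and 0.614% without. After TMM scaling, the summed footprint level of the members was 6463 and 6293 CPM in treated knockout cells and 6169 and 6604 CPM in untreated knockout cells. It was 6216 and 5495 CPM in treated wild-type cells and 6612 and 5842 CPM in untreated wild-type cells. The raw shares were lower in every treated library than in every untreated one, so the reading depends on the scaling. Treated and untreated sums scaled by TMM overlapped in both genotypes. Replicates of the wild type stood apart by about as much: the median log2 ratio of replicate A to B over the members was 0.18 in treated wild-type cells, where 67 of 78 members were higher in A, and 0.18 in untreated wild-type cells, where 62 were. In treated and untreated knockout cells these medians were 0.05 and -0.08.

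The first comparison asked whether footprints on the members changed after dTAG-13. In both genotypes the members as a group lay near their untreated level after TMM scaling. Mrpl42, Mrpl37 and Mrpl51, all mitochondria-specific proteins of the large subunit, lost footprints. In knockout cells 1 member rose and 6 fell at a Benjamini-Hochberg adjusted p under 0.05 in edgeR's quasi-likelihood test. That is 8.97% of the members, beside 8.88% of all 12267 genes tested. In wild-type cells 3 members fell and none rose, which is 3.85% of the members, beside 4.88% of all genes. The share called was thus near that of all genes in either genotype. Without the filter on low counts the members called were 11 in knockout cells, 3 of them higher, and 7 in wild-type cells, 1 of them higher. The share of all genes called is given here for the main fit only. Counts under other settings are thus not read as particular to the members. Leaving out treated wild-type replicate B left 0 in wild-type cells, and leaving out treated knockout replicate A left 2 in knockout cells.

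The median log2 change of the 78 members was 0.01 in knockout cells and -0.11 in wild-type cells, beside 0.04 and -0.01 over all genes tested. By sign alone, 40 members lay above 0 in knockout cells and 20 did in wild-type cells. The wild-type median lay between -0.17 and 0.01 when single libraries were left out, and it was 0.01 without untreated wild-type replicate A and -0.01 without treated wild-type replicate B, so it rests on these libraries. Counts are shares of a library, so a change common to all mRNAs was not measured, and in bulk samples fewer cells of a kind and less RNA per cell cannot be told apart. Both treated libraries lay below both untreated ones for 24 members in knockout cells (30.8%, beside 27% of all genes) and for 26 members in wild-type cells (33.3%, beside 22.8% of all genes). Both lay above them for 24 members in knockout cells (30.8%, beside 32.5%) and for 6 in wild-type cells (7.69%, beside 22.3%). Across both genotypes, 12 members were lower without overlap in each (15.4%, beside 11.8% of all genes). Higher in each were 3 members (3.85%, beside 12.4% of all genes), namely Mrps17, Mrps25 and Mrps31, all of the small subunit.

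**Figure D1:**
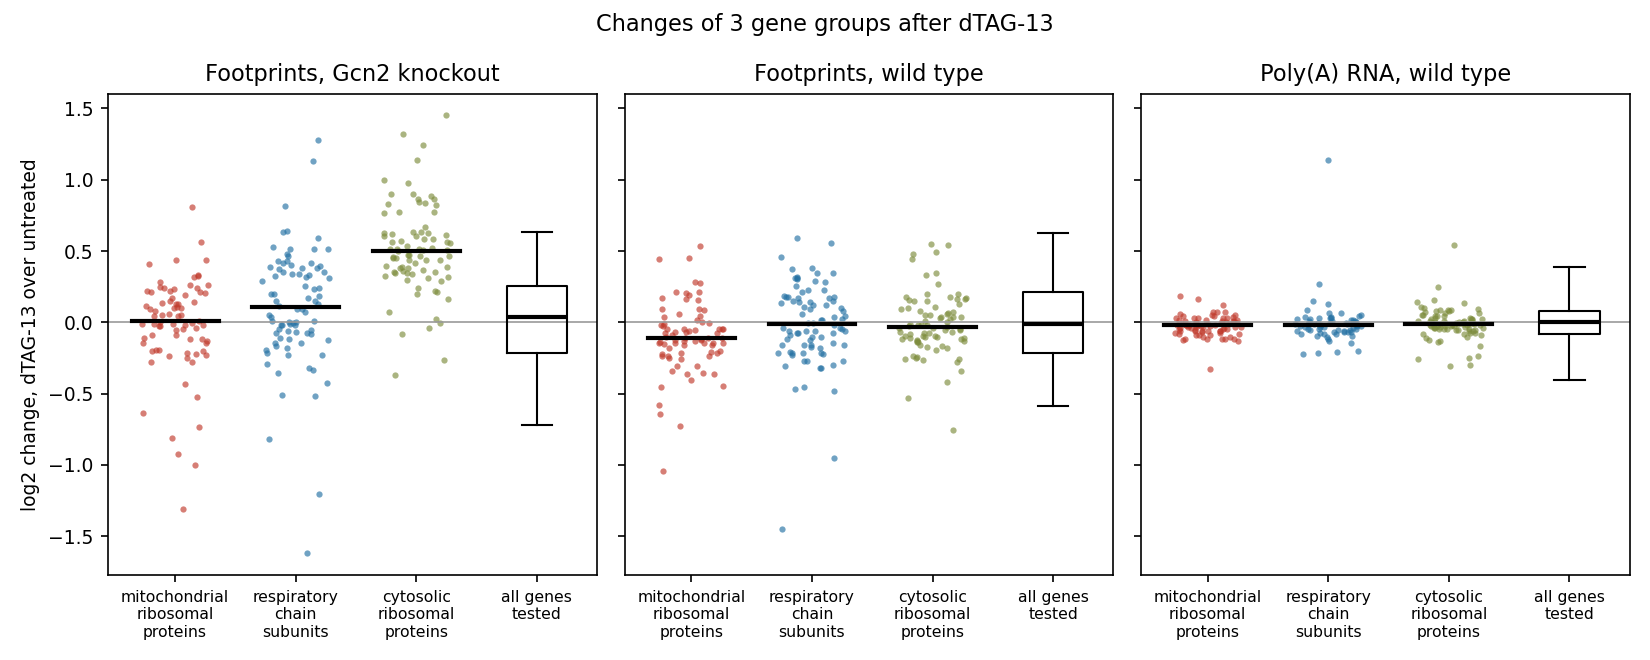
Log2 change (y axis, dTAG-13 over untreated) of each gene in 3 groups: 1 point a gene, a black bar at the group's median, and for all genes tested a box at the quartiles with whiskers at the 5th and 95th percentiles. Mitochondrial ribosomal proteins centre near 0 in all 3 panels, while cytosolic ribosomal proteins centre at 0.50 in footprints of Gcn2 knockout cells and near 0 in the other panels.

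Mrpl42 encodes a mitochondria-specific protein of the large subunit (chromosome 10, 95480805 to 95501949 in mm10) and fell the most of the called members in both genotypes. It had 16.6 and 15.7 CPM in treated knockout cells, against 41.1 and 38.8 CPM in untreated knockout cells. In treated wild-type cells it had 24.3 and 15.0 CPM, against 35.7 and 43.8 CPM in untreated wild-type cells. Every treated library lay below every untreated one. The log2 change was -1.31 (SE 0.196, adjusted p = 0.00155 in edgeR) in knockout cells and -1.05 (SE 0.197, adjusted p = 0.0104) in wild-type cells.

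Mrpl37 encodes another mitochondria-specific protein of the large subunit (chromosome 4, 107055874 to 107066866). Its footprints came to 37.1 and 35.7 CPM in treated knockout cells, against 63.2 and 74.5 CPM in untreated knockout cells. They came to 45.0 and 38.0 CPM in treated wild-type cells, against 73.6 and 63.0 CPM in untreated wild-type cells. The treated libraries were the 4 lowest. The log2 change was -0.92 (SE 0.141, adjusted p = 0.00173 in edgeR) in knockout cells and -0.73 (SE 0.142, adjusted p = 0.0123) in wild-type cells.

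Mrpl51, again mitochondria-specific and of the large subunit (chromosome 6, 125192200 to 125194392), had 53.7 and 60.3 CPM in treated knockout cells, against 85.1 and 105 CPM in untreated knockout cells. In treated wild-type cells the values were 66.5 and 64.0 CPM, against 99.9 and 103 CPM in untreated wild-type cells. The groups did not overlap. The log2 change was -0.74 (SE 0.130, adjusted p = 0.00397 in edgeR) in knockout cells and -0.64 (SE 0.130, adjusted p = 0.0140) in wild-type cells. In knockout cells the calls of Mrpl42 and Mrpl37 held in all 13 alternative settings and that of Mrpl51 in 12, being lost without treated replicate A. In wild-type cells Mrpl42, Mrpl37 and Mrpl51 were called in 11, 10 and 9 of the 13. The wild-type calls were lost for all 3 in a fit of wild-type libraries alone and without treated wild-type replicate B, for Mrpl37 and Mrpl51 without untreated wild-type replicate A, and for Mrpl51 also without treated wild-type replicate A.

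Another 4 members passed the test in knockout cells alone, which does not show that the genotypes differ, since no test of the difference passed for them. Mrpl21, a bacterial-type protein of the large subunit (chromosome 19, 3282997 to 3292837), had 77.7 and 72.4 CPM in treated knockout cells, against 153 and 147 CPM in untreated knockout cells. Its wild-type values overlapped, at 90.0 and 62.0 CPM with treatment, against 138 and 88.5 CPM without. The log2 change was -0.999 (SE 0.205, adjusted p = 0.0123 in edgeR) in knockout cells and -0.58 (SE 0.206, adjusted p = 0.142) in wild-type cells. In both groups of wild-type cells replicate A stood well above replicate B.

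Mrpl18 is the relative of the bacterial protein that binds 5S ribosomal RNA (chromosome 17, 12911345 to 12917787). It had 65.3 and 64.9 CPM in treated knockout cells, against 91.4 and 111 CPM in untreated knockout cells, a log2 change of -0.64 (SE 0.149, adjusted p = 0.0188 in edgeR). In wild-type cells it had 84.3 and 64.3 CPM with treatment, against 88.6 and 102 CPM without, and a log2 change of -0.36 (adjusted p = 0.203). Its annotated span overlaps that of Tcp1, a chaperonin subunit gene, by 1459 bases, and whether counting used strand is not given. Mrps23, a mitochondria-specific protein of the small subunit (chromosome 11, 88194106 to 88211507), had 31.8 and 29.5 CPM in treated knockout cells, against 42.2 and 40.5 CPM in untreated knockout cells, a log2 change of -0.43 (SE 0.124, adjusted p = 0.0477). The wild-type change had the same sign, -0.31 (SE 0.125, adjusted p = 0.198).

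Mrps18c was the member that rose. It is one of 3 mammalian relatives of bacterial ribosomal protein S18 (chromosome 5, 100798759 to 100804467). Its footprints came to 158 and 152 CPM in treated knockout cells, against 104 and 106 CPM in untreated knockout cells, and to 133 and 99.6 CPM in treated wild-type cells, against 99.9 and 90.6 CPM in untreated wild-type cells. The log2 change was 0.56 (SE 0.136, adjusted p = 0.0220 in edgeR) in knockout cells and 0.28 (SE 0.137, adjusted p = 0.286) in wild-type cells, where the groups overlapped. Its relatives Mrps18a, placed in the large subunit, and Mrps18b, placed in the small one, had knockout log2 changes of 0.01 (SE 0.133) and 0.21 (SE 0.123) and wild-type ones of -0.18 (SE 0.134) and 0.21 (SE 0.124), none called. The calls of Mrpl21, Mrps18c and Mrps23 were lost when any 1 of the 4 knockout libraries was left out. That of Mrpl18 was lost without 3 of the 4, all but untreated replicate A, and that of Mrps23 also without treated wild-type replicate A.

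**Figure D2:**
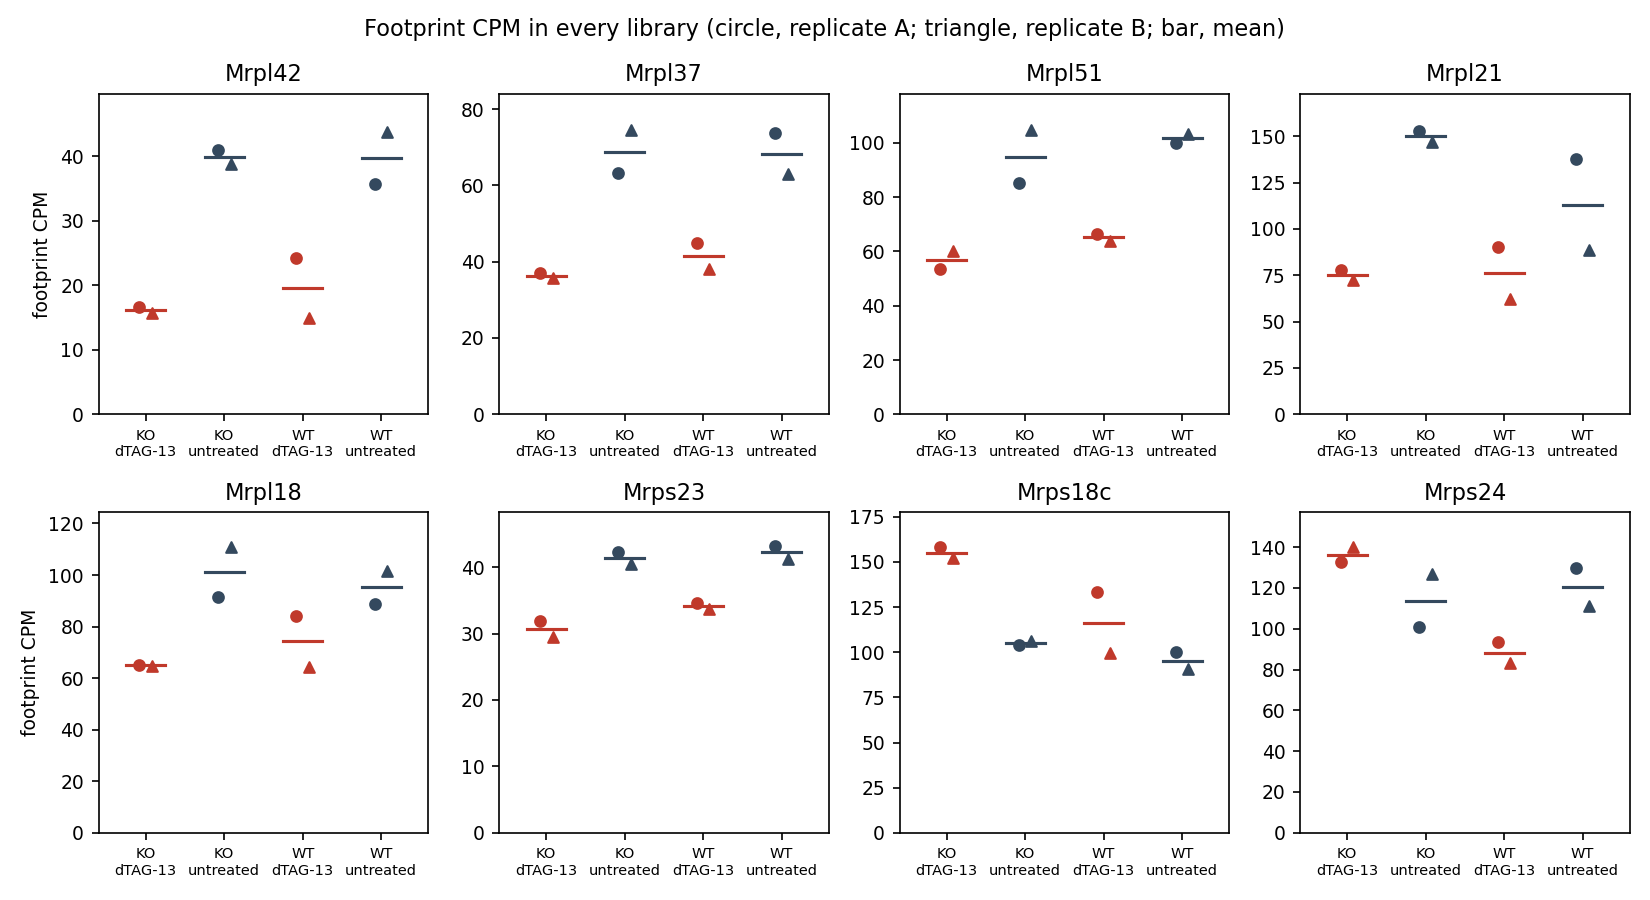
Footprint CPM (y axis, from 0) of 8 members in the 8 footprint libraries, as circles for replicate A and triangles for replicate B with a bar at the mean, treated in red and untreated in dark blue. In Mrpl42, Mrpl37 and Mrpl51 all 4 treated libraries lie below all 4 untreated ones, and Mrps18c is highest in treated knockout cells, at 158 and 152 CPM.

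Of 12 members that were to be named whatever their values, Mrps18c was called, as given above, and the other 11 were not in either genotype. Mrpl12, a stalk protein that also binds the mitochondrial RNA polymerase, had a log2 change of 0.20 (SE 0.146) in knockout cells and -0.31 (SE 0.147) in wild-type cells. Mrps12 lies near the decoding site and had 0.32 (SE 0.179) in knockout and -0.12 (SE 0.180) in wild-type cells. Mrpl58 is a peptidyl-tRNA hydrolase with the GGQ motif of release factors, which frees stalled mitochondrial ribosomes. Its footprints came to 72.3 and 68.4 CPM in treated knockout cells, against 63.8 and 77.2 CPM in untreated knockout cells, and to 61.0 and 52.4 CPM in treated wild-type cells, against 78.6 and 56.0 CPM in untreated wild-type cells. The groups overlapped in both genotypes, with log2 changes of -0.00 (SE 0.163, adjusted p = 0.993 in edgeR) in knockout and -0.25 (SE 0.165, adjusted p = 0.449) in wild-type cells.

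Mrpl45, a relative of the import protein Tim44 that holds the ribosome to the inner membrane, had log2 changes of -0.20 (SE 0.110) in knockout cells and -0.10 (SE 0.110) in wild-type cells. Mrpl44, which resembles ribonuclease III, had -0.05 (SE 0.116) in knockout and 0.28 (SE 0.117) in wild-type cells. Mrpl3, a bacterial-type protein of the large subunit, had -0.03 (SE 0.145) in knockout and 0.06 (SE 0.146) in wild-type cells. Mrps22, a mitochondria-specific protein of the small subunit, had -0.01 (SE 0.128) in knockout and 0.21 (SE 0.128) in wild-type cells. Mrps30 had -0.22 (SE 0.115) in knockout and -0.05 (SE 0.116) in wild-type cells, and Mrps36, the dehydrogenase subunit, 0.22 (SE 0.112) in knockout and -0.11 (SE 0.113) in wild-type cells. These changes all lay within 3 SE of 0.

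The members without overlap between treated and untreated libraries in both genotypes included genes that no test called. The 12 that were lower were the called Mrpl42, Mrpl37, Mrpl51, Mrpl18 and Mrps23, and Mrpl4, Mrpl11, Mrpl39, Mrpl45, Mrpl53, Mrps6 and Mrps11. Mrpl11, a bacterial-type protein of the large subunit, had 69.4 and 66.8 CPM in treated knockout cells, against 83.9 and 81.7 CPM in untreated knockout cells, and 79.1 and 75.5 CPM in treated wild-type cells, against 85.7 and 85.3 CPM in untreated wild-type cells. Its replicates lay close in every group, and its log2 changes of -0.28 (SE 0.110, adjusted p = 0.134 in edgeR) in knockout and -0.15 (SE 0.110, adjusted p = 0.522) in wild-type cells did not pass. Of the 3 that were higher in both genotypes, Mrps31, a mitochondria-specific protein of the small subunit, had 127 and 122 CPM in treated knockout cells, against 105 and 78.5 CPM in untreated knockout cells, and 134 and 108 CPM in treated wild-type cells, against 89.8 and 76.1 CPM in untreated wild-type cells. In edgeR its log2 change was 0.44 (SE 0.155, adjusted p = 0.102) in knockout cells. In wild-type cells it was 0.54 (SE 0.156, adjusted p = 0.0711), the highest of any member there. Mrps25 had 0.33 (SE 0.127) in knockout and 0.19 (SE 0.128) in wild-type cells, and Mrps17, a bacterial-type protein, 0.22 (SE 0.120) in knockout and 0.17 (SE 0.120) in wild-type cells. Mrpl11, Mrps17 and Mrps25 were named for their libraries, after their values were seen. The annotated span of Mrps25 overlaps that of Nr2c2 by 3547 bases and that of Mrps6 overlaps Slc5a3 by 29138. The limit given for Mrpl18 thus holds for them too.

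The 4 structural classes lay close together. In knockout cells the median log2 footprint change was 0.07 over the 30 bacterial-type proteins of the large subunit, -0.03 over the 21 mitochondria-specific ones, -0.00 over the 16 bacterial-type proteins of the small subunit and 0.04 over its 10 mitochondria-specific ones. In wild-type cells these medians were -0.12, -0.10, -0.13 and -0.05 in turn. In wild-type cells the 3 called members were of the mitochondria-specific large-subunit class, and in knockout cells that class held 3 of the 7. No test compared the classes. Over all members the knockout change ranged from -1.31 to 0.81 and the wild-type change from -1.05 to 0.54. The highest knockout value belonged to Mrpl30, a bacterial-type protein of the large subunit named after its values were seen. It had 31.8 and 31.9 CPM in treated knockout cells, against 15.0 and 21.4 CPM in untreated knockout cells, and did not pass the test (log2 change 0.81, SE 0.265, adjusted p = 0.0833 in edgeR).

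By the sign of the change, 32 members were lower with treatment in both genotypes, 14 were higher in both and 32 had opposite signs. Of these, 6 lay above their untreated libraries without overlap in knockout cells and below them without overlap in wild-type cells (7.69% of the 78 members, beside 3.51% of all genes): Mrpl9, Mrpl12, Mrpl20, Mrps24, Mrps26 and Mrps36. The difference of the 2 changes was tested directly. None of the 78 members passed in edgeR, beside 0.0489% of all genes (6 of 12267), and none passed in DESeq2. An unadjusted p under 0.05 in edgeR was found for 6 of the 78 members, beside 1229 of the 12267 genes. Without the filter on low counts 1 member passed. The median difference over the members was 0.07 log2 units in favour of the knockout, beside 0.01 over all genes, and lay between -0.06 and 0.15 when single libraries were left out, turning negative without treated wild-type replicate B.

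Mrps24, a bacterial-type protein of the small subunit, had the smallest p for this difference. It had 133 and 140 CPM in treated knockout cells, against 101 and 127 CPM in untreated knockout cells, and 93.6 and 83.1 CPM in treated wild-type cells, against 130 and 111 CPM in untreated wild-type cells. The treated libraries lay highest in the knockout and lowest in the wild type. The difference of the log2 changes was 0.71 (SE 0.194, adjusted p = 0.246 in edgeR). Next came Mrps26 with 0.65 (SE 0.225, adjusted p = 0.342), Mrpl57 with 0.58 (SE 0.234, adjusted p = 0.420) and Mrpl12 with 0.51 (SE 0.208, adjusted p = 0.428). None of the 4 is called.

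**Figure D3:**
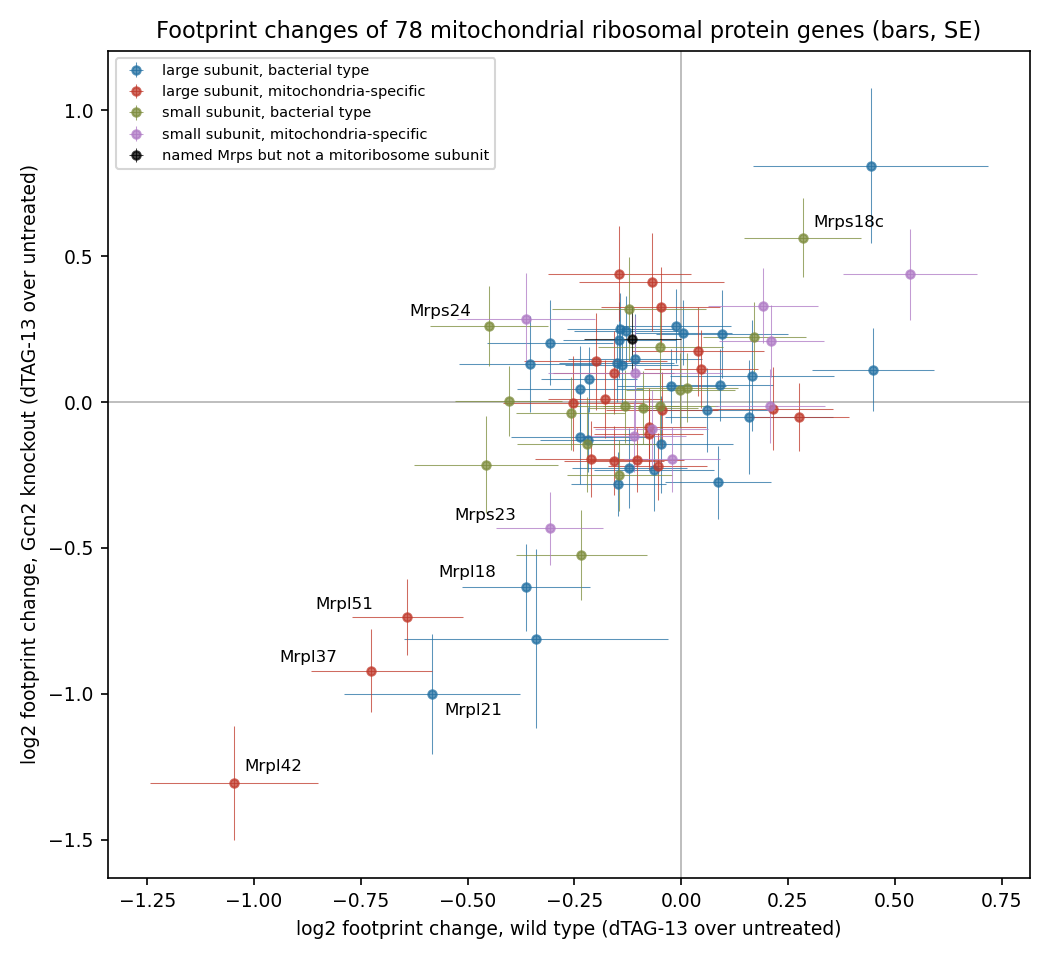
Log2 footprint change after dTAG-13 in wild-type cells (x axis) and in Gcn2 knockout cells (y axis) for the 78 members, coloured by structural class, with SE bars. Mrpl42, Mrpl37, Mrpl51 and Mrpl21 lie far to the lower left, Mrps18c lies to the upper right, and Mrps24 lies above 0 in the knockout and below 0 in the wild type.

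Treated knockout cells were also set against treated wild-type cells. Here 5 members were higher and none lower, which is 6.41% of the members, beside 3.78% of all genes. Mrps21, a bacterial-type protein of the small subunit, had 51.3 and 49.1 CPM in treated knockout cells and 31.2 and 31.2 CPM in treated wild-type cells, a log2 difference of 0.69 (SE 0.126, adjusted p = 0.0154 in edgeR). Mrpl57, a mitochondria-specific protein of the large subunit, had 66.8 and 57.3 CPM in treated knockout cells and 42.3 and 34.9 CPM in treated wild-type cells, a difference of 0.69 (SE 0.168, adjusted p = 0.0410). Mrps24 differed by 0.63 (SE 0.139, adjusted p = 0.0295), and the bacterial-type large-subunit proteins Mrpl34 and Mrpl20 by 0.58 (SE 0.128, adjusted p = 0.0296) and 0.50 (SE 0.123, adjusted p = 0.0427). This comparison includes any difference present before treatment. In untreated cells the log2 difference was 0.31 for Mrpl34, 0.28 for Mrps21, 0.13 for Mrpl20, 0.11 for Mrpl57 and -0.08 for Mrps24, none called. None of the 5 passed the test of the difference of the changes. All 5 were higher in both treated knockout libraries than in both treated wild-type ones. They were called from these same libraries, so this order adds no support to the calls. No member was called when treated knockout replicate A was left out, and each of the 5 calls was also lost without treated knockout replicate B and without treated wild-type replicate B. Those of Mrpl20, Mrpl57 and Mrps24 were lost without treated wild-type replicate A too, that of Mrpl57 without either untreated knockout library, and that of Mrpl20 with DESeq2 size factors. Mrpl57 was thus called in 6 of 12 alternative settings. The median difference over the members was 0.08, beside -0.00 over all genes, and ranged from 0.00 to 0.20 with single libraries left out.

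Untreated knockout cells were set against untreated wild-type cells as well. None of the 78 members differed between untreated knockout and untreated wild-type cells in edgeR, beside 0.00815% of all genes (1 of 12267), and none differed in DESeq2. An unadjusted p under 0.05 in edgeR was found for 4 of the 78 members, beside 733 of the 12267 genes. The median log2 difference was 0.02. The smallest p-values were those of Mrpl38 at 0.34 (SE 0.129), Mrpl52 at -0.37 (SE 0.140), Mrpl34 at 0.31 (SE 0.126) and Mrps21 at 0.28 (SE 0.120), with adjusted p of 0.736 to 0.800 in edgeR. The first is a large-subunit protein of the mitochondria-specific kind, as is the second. This comparison uses the same untreated libraries as the treatment changes.

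RNA levels of the members moved little in treated wild-type cells. Of the 77 members that passed the filter on RNA counts, none was called in edgeR, beside 0.163% of all 15955 genes tested, and none was called in DESeq2. An unadjusted p under 0.05 in edgeR was found for 1 of the 77 members, beside 819 of the 15955 genes. Mrps10 did not pass the filter. The median log2 RNA change was -0.02, beside -0.00 over all genes. For 72 members with ample RNA counts, those left when 6 with few RNA counts are set aside, the change ranged from -0.13 to 0.12 with SEs of 0.0532 to 0.174. Mrpl51 had the smallest p, with 88.2 and 88.2 CPM in treated cells, against 102 and 91.0 CPM in untreated cells, a log2 RNA change of -0.13 (SE 0.0593, adjusted p = 0.939 in edgeR). Mrpl46, Mrpl12 and Mrpl35 followed at -0.13, -0.09 and -0.11. Leaving out untreated RNA replicate B gave 2 calls.

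For the 3 mRNAs whose footprints fell in wild-type cells, no RNA change was called. Both treated RNA libraries lay below both untreated ones for Mrpl51, as given above, and for Mrpl37, and the groups overlapped for Mrpl42. The share of all genes with such an order in RNA is not given, so the order is not read as an RNA fall. Mrpl42 RNA was at 75.03 and 74.8 CPM in treated cells, against 75.5 and 70.1 CPM in untreated cells, a log2 change of 0.04 (SE 0.0619). Mrpl37 RNA was at 91.0 and 97.3 CPM in treated cells, against 97.9 and 97.8 CPM in untreated cells, a log2 change of -0.06 (SE 0.0573). RNA was sequenced in wild-type cells only.

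Translational efficiency, the footprint change beyond the RNA change, was tested as an interaction over the 8 wild-type libraries. The name is a convention: footprints count ribosomes on mRNAs, whether they move or wait, and protein made was not measured. None of the 78 members was called in edgeR, beside 1.47% of all 12887 genes tested. An unadjusted p under 0.05 in edgeR was found for 11 of the 78 members, beside 1836 of the 12887 genes. DESeq2 called 2 members, both lower, and its share over all genes is not given here. The 3 smallest p-values were those of Mrpl42 at -1.10 (SE 0.250, adjusted p = 0.0635 in edgeR), Mrpl37 at -0.67 (SE 0.157, adjusted p = 0.0654) and Mrpl51 at -0.51 (SE 0.127, adjusted p = 0.0782). Mrps31 followed at 0.60 (SE 0.167, adjusted p = 0.112) and Mrps24 at -0.49 (SE 0.150, adjusted p = 0.147). The median over the members was -0.09, beside -0.00 over all genes. Leaving out untreated wild-type footprint replicate B gave 4 calls, and leaving out untreated wild-type footprint replicate A moved the median to 0.00.

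For 6 members the 2 tables stood far apart. In untreated wild-type cells, footprint CPM exceeded RNA CPM by 465 times for Mrps10, 75.9 for Mrpl22, 51.9 for Mrpl23, 42.9 for Mrps18b, 39.5 for Mrpl40 and 38.8 for Mrps36. The next member, Mrps33, had a ratio of 7.08, and the median member one of 1.31. Mrps10 had 10 and 7 RNA counts in treated libraries and 3 and 5 in untreated ones, against 9562 footprint counts over the 8 footprint libraries. Over all genes with at least 10 footprint CPM, 4.63% (355 of 7663) had a ratio above 10, the limit that sets these 6 apart and that was chosen after seeing the data. The RefSeq annotation of GRCm38 names pseudogenes of Mrpl23 and of Mrps36. It also names pseudogenes of Mrpl27 and Mrpl48, which are not among the 6 and had ratios of 1.89 and 1.90. Mrps18b overlaps the long noncoding RNA Gm16279 by 141 bases, and no annotated gene overlaps the other 5. How reads that fit several places were counted is not given, and its part in these ratios was not tested. RNA and efficiency changes of the 6 carry little information: the log2 RNA change of Mrpl22, for example, was -0.32 with an SE of 0.431. With the 6 set aside, the median efficiency change of the 72 members left was -0.08.

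**Figure D4:**
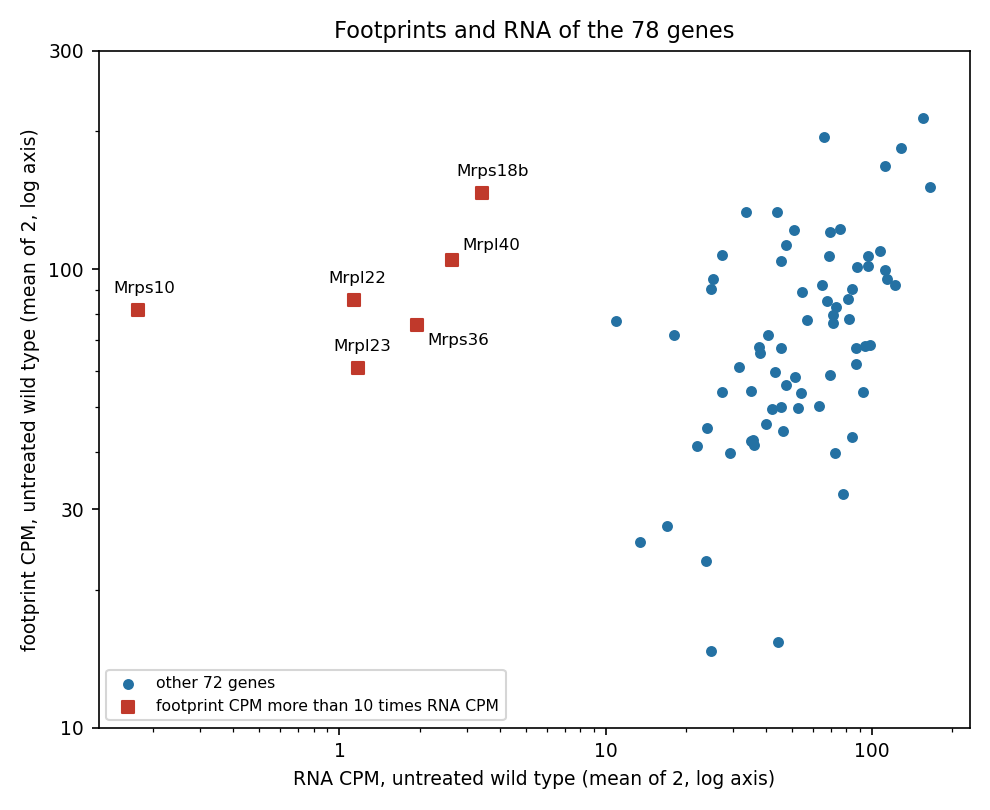
Mean footprint CPM (y axis, log scale) against mean RNA CPM (x axis, log scale) of the 78 members in untreated wild-type cells, means of 2 libraries each. Squares mark the 6 members whose footprint CPM is more than 10 times their RNA CPM, which stand far to the left of the other 72.

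The members were then set beside the cytosolic ribosomal proteins, which build the ribosomes that translate nuclear mRNAs, and the nuclear-encoded subunits of the respiratory chain, whose complexes also hold the products of mitochondrial ribosomes. In knockout cells the median log2 footprint change was 0.01 for the 78 members, 0.50 for 81 cytosolic ribosomal proteins and 0.10 for 84 respiratory chain subunits. Of the members 1 rose and 6 fell, of the cytosolic ribosomal proteins 33 rose and none fell, and of the respiratory chain subunits 10 rose and 4 fell. The shares called were 8.97%, 40.7% and 16.7% in turn, beside 8.88% of all genes. Treated libraries lay above untreated ones without overlap for 24 of the 78 members and for 73 of the 81 cytosolic ribosomal proteins. This also held for 44 of the 84 respiratory chain subunits and for 32.5% of all genes. In wild-type cells the medians were -0.11 for the members, -0.03 for cytosolic ribosomal proteins and -0.01 for respiratory chain subunits. Single libraries moved these counts: the cytosolic ribosomal proteins called numbered 4 without untreated knockout replicate A, 20 without untreated replicate B, 4 without treated replicate A and 3 without treated replicate B, while their median stayed between 0.41 and 0.56. The respiratory chain subunits that rose numbered 0 without untreated replicate A or either treated replicate and 4 without untreated replicate B. Before treatment, cytosolic ribosomal proteins had a median log2 difference between knockout and wild-type cells of -0.22 and the members one of 0.02. These lists were set side by side by count and median, with no test between them.

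Many mRNAs of cytosolic ribosomal proteins begin with a 5′ terminal oligopyrimidine (TOP) stretch, a C followed by bases that are each C or T, through which growth signals set their translation. Annotated starts were therefore compared, in RefSeq windows of GRCm38.p6 that were found for 69 of the 78 members. An annotated start with a C and then 4 bases that are each C or T was present in 0 of 75 member windows, in 13 of 76 windows of cytosolic ribosomal proteins (17.1%) and in 2.51% of all 32851 windows. Shown here, to set them against a start of this kind, are 4 of the 7 members called after dTAG-13 on the first 4 lines, the 3 called in both genotypes and Mrps18c, which rose. Below them are 3 cytosolic ribosomal proteins with such a start. Each is given as 10 bases before and 20 from the annotated start, 5′ to 3′, with the first 5 bases of the transcript in capitals. The windows are chr10:95501930-95501959 on the minus strand for Mrpl42, chr4:107066847-107066876 on the minus strand for Mrpl37, chr6:125192190-125192219 on the plus strand for Mrpl51 and chr5:100798749-100798778 on the plus strand for Mrps18c. For the cytosolic genes they are chr4:86857348-86857377 on the minus strand for Rps6, chr7:4792955-4792984 on the plus strand for Rpl28 and chr14:18270967-18270996 on the minus strand for Rpl15.
Mrpl42: gcgcgctggaCGGCGcctttaggacccaga
Mrpl37: ccgcccctttGGCTCccagcagtccctgca
Mrpl51: gactccctaaGCTACctgggtaaggcccaa
Mrps18c: gaagaggaagGGCGGagaaccatggccgct
Rps6: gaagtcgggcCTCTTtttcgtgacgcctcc
Rpl28: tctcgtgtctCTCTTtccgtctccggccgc
Rpl15: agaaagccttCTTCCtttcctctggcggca
The 3 cytosolic starts are such runs because they were picked for it, so the lines are examples and no test. None of the 4 member starts is an unbroken run of C and T after a leading C. Annotated starts can be off by some bases. Allowing such a run to begin within 5 bases of the annotated start, a setting added after seeing the data, gave 22.7% of member windows, 40.8% of cytosolic ribosomal protein windows and 18.3% of all windows. At that tolerance the members were thus near the share of all genes. Of the members shown, Mrpl42 and Mrpl37 had such a run within 5 bases, and Mrpl51 and Mrps18c did not.

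Promoters of the members held letters of 3 factors known to bind genes for mitochondrial proteins more often than all promoters did. In the windows of 250 bases before to 50 after the start, searched on both strands, the ETS letters CCGGAAGT were found in 16.0% of member windows, 15.8% of cytosolic ribosomal protein windows and 3.89% of all windows. The NRF1 letters GCGCATGCG were found in 9.33%, 3.95% and 1.75% of these windows in turn, and the YY1 letters AAGATGGCG in 10.7%, 7.89% and 1.4%. Among the 7 members called after dTAG-13, the ETS letters stood in the windows of Mrpl51, Mrpl18 and Mrps18c and the YY1 letters in those of Mrpl42 and Mrpl37. The windows of Mrpl21 and Mrps23 held none of the 3. Of all 69 member genes with a window, 26 held letters of at least 1 factor, with ETS letters in 12 and YY1 letters in 8. These counts describe letters in fixed windows and carry no test.

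Other genes of mitochondrial translation were counted by list. Over all genes, 8.88% were called in knockout cells and 4.88% in wild-type cells. In edgeR 3004 of 12267 genes had an unadjusted p under 0.05 in knockout cells and 2335 did in wild-type cells. None of 5 proteins of the mitochondrial ribosome with other names, among them Dap3, Ptcd3 and Aurkaip1, was called in edgeR in either genotype, with 0 at an unadjusted p under 0.05 in knockout and 1 in wild-type cells. DESeq2 called 0 in knockout and 1 in wild-type cells. Of 25 assembly factors, none was called in wild-type cells, where 1 had an unadjusted p under 0.05 in edgeR and DESeq2 called none. In knockout cells 1 of the 25 fell, which is 4%. It was Rpusd4, a pseudouridine synthase that acts on mitochondrial 16S ribosomal RNA, with 25.8 and 29.1 CPM in treated knockout cells, against 41.3 and 45.2 CPM in untreated knockout cells, a log2 change of -0.66 (SE 0.132, adjusted p = 0.00853). The call was lost without untreated replicate B and without either treated replicate.

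Among 16 mitochondrial translation factors, 1 was called in wild-type cells (6.25%, beside 4.88% of all genes) and 2 in knockout cells (12.5%, beside 8.88%). Between treated genotypes 2 were called (12.5%, beside 3.78%). The factor called in wild-type cells was Lrpprc, which rose. Its protein binds and stabilises mitochondrial mRNAs. It had 184 and 178 CPM in treated knockout cells, against 180 and 160 CPM in untreated knockout cells, and 265 and 249 CPM in treated wild-type cells, against 144 and 158 CPM in untreated wild-type cells. The wild-type log2 change was 0.77 (SE 0.113, adjusted p = 0.00310 in edgeR), called in 12 of 13 alternative settings and lost with wild-type libraries alone. Its efficiency change was 0.78 (SE 0.123, adjusted p = 0.0213), lost when any 1 RNA library was left out. Treated knockout cells were lower than treated wild-type cells by a log2 difference of -0.51 (SE 0.113, adjusted p = 0.0301) for Lrpprc and of -0.53 (SE 0.127, adjusted p = 0.0391) for the elongation factor gene Gfm1, and both calls were lost when any 1 of the 4 treated footprint libraries was left out, that of Gfm1 also without either untreated knockout library. The knockout change of Lrpprc was 0.09 (SE 0.113), and the difference of the changes, -0.68 (SE 0.159, adjusted p = 0.184), did not pass. In knockout cells Oxa1l, which inserts newly made proteins into the inner membrane, fell by 0.60 (SE 0.113, adjusted p = 0.00600), with 103 and 111 CPM in treated cells, against 154 and 171 CPM in untreated ones, and was lost without either treated replicate. Mtif2, the mitochondrial initiation factor that brings the initiator tRNA, fell by 0.60 (SE 0.171, adjusted p = 0.0463) there, with 14.6 and 13.3 CPM in treated cells, against 22.9 and 19.3 CPM in untreated ones, and was lost when any 1 knockout library was left out.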

How the data were processed

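Ribosome footprints (8 libraries) and poly(A) RNA (4 libraries) were deposited by the authors as raw counts per gene symbol, 1 table each. Per the submitters' processing notes, CASAVA 1.4, cutadapt and HISAT2 2.1.0 were used with the mm10 build. Not given in the sources used here are the counter, its annotation, its use of strand, how it treated reads with several matches, and the part of the transcript it counted. All labels carry the footprint extraction protocol, also those of the RNA libraries. Column names were matched to the labels. The description of replicate B of treated knockout cells names the column of replicate A. The title's letter B gave the match there.

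Tests used edgeR 4.0.16 under R 4.3.3: filterByExpr with a minimum count of 10, TMM, a quasi-likelihood fit with robust dispersions and Benjamini-Hochberg adjustment over all genes tested, two-sided, called under 0.05. All 8 footprint libraries shared 1 fit by group, with 4 residual degrees of freedom. The 4 RNA libraries were fitted alone. Efficiency was the interaction between treatment and assay in wild-type cells (both tables joined by symbol, 20050 as written and 84 through RefSeq synonyms). Scripts were tested on simulated data. Alternatives were DESeq2 1.42.0, its size factors in edgeR, no filter, a replicate block, 1 genotype alone and leaving out each library. The members and lists were chosen with earlier results of these data known.

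Named are up to 6 called members in each direction per comparison, the members with the smallest p up to 4 where fewer are called, 12 members named whatever their values, and called genes of the lists of mitochondrial translation and of markers. Cytosolic ribosomal proteins and respiratory chain subunits are given by counts. An order of levels per coding length and classes by protein length were planned and are not analysed here. Among the members, 20 overlap another protein-coding gene in RefSeq GRCm38. Besides those named above, they include the called Mrpl37, Mrpl21, Mrps23 and Mrpl57, with overlaps of 37, 14, 35 and 64 bases in turn. Counting error is part of the fitted spread, and no counting interval is given.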

Additional observations from a re-analysis of the deposited data

How the results depend on the processing

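All medians and calls named here are over the 78 members (77 for RNA), and no called value changed sign under the alternatives run. Shares of all genes called under the alternatives are not given, so a shift common to all genes is not told from one of the members. In wild-type footprints, 6 members were called with DESeq2 (1 higher), 7 without the filter on low counts and 0 with wild-type libraries alone. Leaving out single libraries gave 0 (without treated wild-type replicate B) to 5 calls and medians of -0.171 to 0.00566. In knockout footprints, 11 were called without the filter and 2 (without treated knockout replicate A) to 10 with single libraries left out. For the difference of the changes, 1 was called without the filter, and the median ranged from -0.0569 to 0.148 with single libraries left out. For treated knockout over treated wild-type cells, 10 were called without the filter and 0 to 9 with single libraries left out, with medians of 0.00488 to 0.195. The untreated difference had medians of -0.0604 to 0.123, and RNA 0 to 2 calls with medians of -0.0555 to 0.0118. For efficiency, DESeq2 called 2 and the fit without a filter 4, and leaving out single libraries gave 0 to 4 calls and medians of -0.168 to 0.00416. Fits without 1 library assume that the lone sample left in its group varies like the other groups. The cause of these shifts was not tested, beyond the smaller number of libraries.

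Replicate letters are shared by the groups, but no common batch is named. The correlation of A minus B between treated and untreated cells over the genes was 0.112 in the knockout, 0.536 in the wild type and 0.0198 in RNA. With a replicate block, 10 members were called in knockout cells, 6 in wild-type cells, 11 between treated genotypes and 3 for efficiency, beside 7, 3, 5 and 0 without it. The share of all genes called with the block is not given here, so the higher counts are not read as particular to the members. With 2 libraries a group and as few as 7874804 counts, changes of the size of the members' medians are not resolved gene by gene.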
